A study of Mus musculus with 37 samples.

Results

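Apolipoproteins are the proteins that coat lipoprotein particles, and Mttp loads lipid onto the largest of them. Transcripts of 10 such genes were followed in mouse liver: Apob, Mttp, Apoa1, Apoa2, Apoa4, Apoa5, Apoc1, Apoc2, Apoc3 and Apoe. They were chosen by symbol from a table of 55487 genes, and all 10 were among the 15564 genes that passed the filter on low counts. RNA sequencing covered 37 livers of mice lacking the NADPH oxidase NOX4 (KO, 19 livers) or wild type at that locus (WT, 18 livers). The KO livers were taken 6 h (n = 3), 24 h (n = 4), 48 h (n = 4) or 7 d (n = 3) after partial hepatectomy, an operation that leaves a small remnant of liver to regrow, and the WT livers at 6 h (n = 3), 24 h (n = 3), 48 h (n = 4) or 7 d (n = 3). Sham-operated livers, taken at mixed times, served as controls, 5 in KO (6, 24, 48 or 72 h) and 5 in WT (6, 24 or 48 h or 7 d). They were pooled within each genotype and not matched in time to the hepatectomy livers. Hepatectomy and time after surgery therefore cannot be fully told apart in the comparisons with sham. Both sexes were used (23 male and 14 female livers), but all livers at 6 h after hepatectomy were male. Strain, age and the cells in which Nox4 was deleted are not given in the sources used here.

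The liver packages triglyceride and cholesterol into very low density lipoprotein around a single Apob molecule, which stays with the particle for life, and Mttp transfers lipid onto Apob as it is made. Apoa1 and Apoa2 are the main proteins of high density lipoprotein. The smaller exchangeable apolipoproteins move between particles and set their fate: Apoc2 activates lipoprotein lipase, Apoc3 restrains clearance, and Apoe is bound by the receptors that take remnants up. In the days after hepatectomy the remaining liver is known to store fat for a time while its hepatocytes divide.

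Most of the genes lie in a pair of clusters. Apoe, Apoc1 and Apoc2 lie on chromosome 7 within 27.6 kb, and Apoa1, Apoc3, Apoa4 and Apoa5 on chromosome 9 within 43.3 kb (GRCm38, GENCODE M21). Apoc2 (7:19671579-19677941, minus strand) and Apoe (7:19696109-19699188, minus strand) are shown first because they moved in opposite directions after hepatectomy, and Apoa2 (1:171225054-171226379, plus strand), on another chromosome, because it moved like Apoe. The 140 bases just before each annotated start, from RefSeq (GRCm38.p6), read as follows on the strand of the gene, with AGGTCA in capitals.
Apoc2: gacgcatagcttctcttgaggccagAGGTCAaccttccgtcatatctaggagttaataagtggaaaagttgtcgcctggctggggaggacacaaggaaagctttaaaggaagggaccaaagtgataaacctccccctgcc
Apoe: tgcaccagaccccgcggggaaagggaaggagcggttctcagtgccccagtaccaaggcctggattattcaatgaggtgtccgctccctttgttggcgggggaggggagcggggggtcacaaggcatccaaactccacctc
Apoa2: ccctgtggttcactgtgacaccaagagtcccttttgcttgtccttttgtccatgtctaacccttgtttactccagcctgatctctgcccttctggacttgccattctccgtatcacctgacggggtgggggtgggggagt
The windows are chr7:19677942-19678081 for Apoc2, chr7:19699189-19699328 for Apoe and chr1:171224914-171225053 for Apoa2. The letters AGGTCA, the half-site of many nuclear receptors, occur in the Apoc2 window with their first base at -115 from the start, and in neither of the others. Of 32851 promoter windows of the same length, 8.0% hold AGGTCA on either strand. TATAAA (7.21% of windows), CCAAT (23.4%) and GGGCGG (28.0%), also searched on both strands, occur in none of these 3 windows. A match is a description of the letters and not a binding site.

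The libraries held 26232544 to 48827025 counts. Nox4 ranged from 0.325 to 4.98 CPM (read counts relative to the library size) in KO males (n = 12) and from 3.95 to 23.5 CPM in WT males (n = 11), so the ranges overlapped slightly, while it was 0 to 0.245 CPM in KO females (n = 7) and 0.778 to 3.36 CPM in WT females (n = 7). The WT 24 h liver of replicate 3 stood apart, with 8.93% of its counts from mitochondrial genes. The KO 24 h livers were split, with replicate 1 at -26.8 on the first principal component of log2 CPM and the other 3 at 90.6 to 122. The WT 24 h livers were at -32.8 to 0.660 and the KO 48 h livers at -43.4 to -27.5, so replicate 1 lay near those groups and the other 3 did not. Those 3 lay at the top of or above the range of the livers at 6 h after hepatectomy (61.2 to 91.0). The part of this split in the results of KO livers at 24 h was not tested. Alb, the defining hepatocyte transcript, had a median of 72633 CPM over the 37 livers. CPM were scaled by the trimmed mean of M-values, which sets libraries of different composition on one scale, and changes were tested with edgeR's quasi-likelihood test, adjusted by Benjamini-Hochberg over all 15564 genes at a threshold of 0.05. Nothing in the labels says how independent the samples of a group were, so p-values measure the spread between these libraries, which may be technical.

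Levels of different genes were set side by side per kilobase of exon (RPKM, CPM divided by exon length in kilobases). The length was that of all annotated exons of a gene merged, which can exceed the length of its main transcript. On this scale Apoa1 was highest at 9640 ± 3067 RPKM (SD, n = 37), followed by Apoa2 at 8243 ± 2655 RPKM and Apoe at 7439 ± 2358 RPKM. These 3 levels lay within 1 SD of each other, although Apoa1 was above Apoa2 in 26 of 37 livers and Apoa2 above Apoe in 33. Their order depends on the lengths used. In CPM, without the length, Apoe was highest at a mean of 15905, against 11915 for Apoa1 and 4427 for Apoa2. The remaining levels are per kilobase of exon. Apoc1 followed at 3901 ± 1342 RPKM and Apoc3 at 1444 ± 463 RPKM. Apoc1 was above Apoc3 in all 37 livers, and Apoe above Apoc1 in 36. Apoa5, which promotes clearance of triglyceride (613 ± 273 RPKM), Apoa4, an apolipoprotein induced by fat (548 ± 383 RPKM), and Apoc2 (375 ± 232 RPKM) formed a group whose neighbours did not differ beyond their spread. Apob, which supplies 1 molecule per particle, was at 142 ± 52.0 RPKM, and Mttp at 40.9 ± 11.7 RPKM. The 10 genes together took 3.87% ± 0.359 of all counts in KO and 3.27% ± 0.510 in WT livers at 24 h after hepatectomy, against 4.49% ± 0.716 in KO sham and 4.28% ± 0.568 in WT sham livers (SD).

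**Figure D1:**
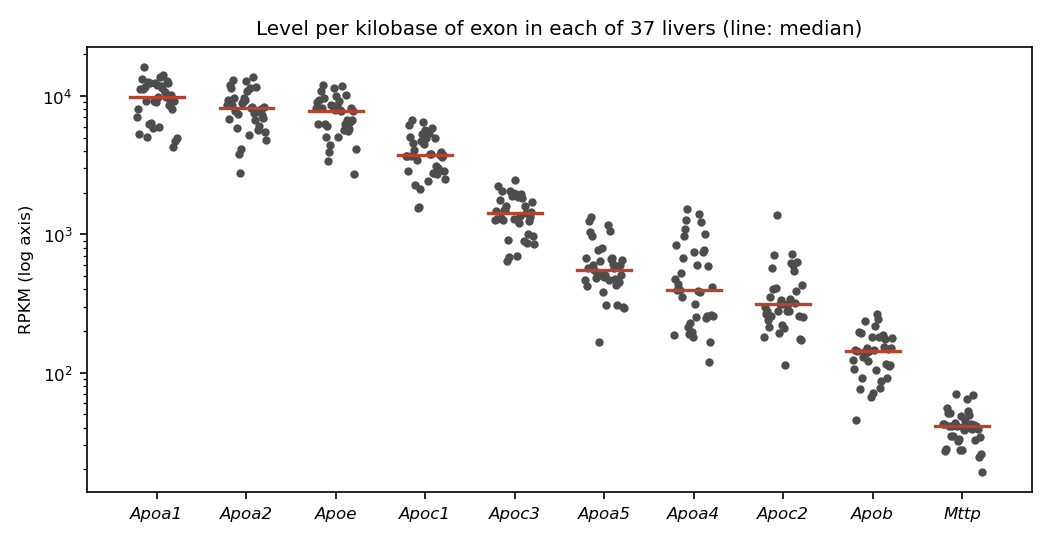
Level per kilobase of exon (RPKM, log axis) of each transcript in each of 37 livers, with the line at the median. The levels run from Apoa1 at a mean of 9640 RPKM down to Mttp at 40.9 RPKM, and Apoa4 spans the widest range of the 10.

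Apoc2, the cofactor that switches on lipoprotein lipase, rose 2.73-fold in KO livers at 24 h and 2.74-fold in WT livers at 48 h after hepatectomy. In WT livers at 48 h Apoe, Apoa2 and Apoc1 fell to about 0.5 of their sham level. These were the 5 changes of single members that passed the test among the 19 comparisons made. Apoc2 and its cluster neighbours Apoe and Apoc1 therefore moved in opposite directions at 48 h in WT livers. In bulk tissue, fewer cells of a type and less RNA per cell cannot be told apart.

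In KO livers at 24 h Apoc2 was 507, 589, 487 and 445 CPM, against 179, 256, 172, 92.7 and 228 CPM in KO sham livers. Every KO 24 h liver was above every KO sham liver. The log2 change was 1.45 (SE 0.33, adjusted p = 0.00172). It was 1 of 10 members called in this comparison, in which 28% of all genes tested were called, and 15.9% called higher. Apoc2 passed in each of 37 fits that left out 1 library, with log2 changes of 1.22 to 1.61, and 1.45 (adjusted p = 0.00172) without KO 24 h replicate 1. Kupffer cell markers moved in the same comparison, in which 1874 of the 15564 genes were called lower. Of 11 such markers 9 were lower, and their summed level ranged from 142 to 426 CPM in KO 24 h livers and from 381 to 585 CPM in KO sham livers. Of 6 sinusoidal endothelial markers 4 were lower and 1 higher. Of 6 T, NK and B cell markers 4 were lower, at low levels (summed, 0.236 to 1.48 CPM in KO 24 h and 1.84 to 5.76 CPM in KO sham livers). The part of these cells in the Apoc2 result was not tested.

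In WT livers at 24 h Apoc2 was 467, 327 and 352 CPM, against 147, 245, 217, 226 and 196 CPM in WT sham livers. The groups did not overlap, but the log2 change of 0.89 (SE 0.36) did not pass (adjusted p = 0.218), and 0.925% of all genes were called. No member passed in WT at 24 h by edgeR, whereas 3 were at an unadjusted p under 0.05 and DESeq2 called 1, Apoe. Apoe was 5847 to 13389 CPM in WT livers at 24 h, against 13398 to 23055 CPM in WT sham livers. Its log2 change by edgeR was -0.94 (SE 0.27, adjusted p = 0.0828), and -1.15 to -0.64 in fits leaving out 1 library. Summed hepatocyte markers ranged from 41707 to 93057 CPM in WT livers at 24 h and from 86410 to 135404 CPM in WT sham livers. Their part in the Apoe change was not tested. The difference between the responses of KO and WT at 24 h was a log2 value of 0.56 for Apoc2 (SE 0.49, adjusted p = 0.476).

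In WT livers at 48 h Apoc2 was 572, 332, 1128 and 228 CPM, against 147, 245, 217, 226 and 196 CPM in WT sham livers. Replicate 3 was the highest of the 37 livers, and replicate 4 lay within the sham range. The log2 change was 1.45 (SE 0.33, adjusted p = 0.00548), which fell to 0.80 (adjusted p = 0.128) without WT 48 h replicate 3. In KO livers at 48 h Apoc2 was 260, 317, 516 and 207 CPM, a log2 change of 0.81 from KO sham that did not pass (SE 0.33, adjusted p = 0.234).

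Apoe, the ligand for remnant receptors, was 12986, 7238, 8463 and 9384 CPM in WT livers at 48 h, against 17526, 19347, 13398, 19890 and 23055 CPM in WT sham livers. All 4 livers were below all 5 sham livers. Apoe fell to 0.501 of its sham level (log2 SE 0.24, adjusted p = 0.00965), and it passed in each of the 37 fits that left out 1 library. Apoa2, a structural protein of high density lipoprotein, was 3955, 2048, 1483 and 2209 CPM in WT livers at 48 h, against 4638, 4990, 3683, 6434 and 6117 CPM in WT sham livers. Only replicate 1 reached into the sham range. Its log2 change was -1.13 (SE 0.27, adjusted p = 0.00744), and it passed in each of the 37 fits.

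Apoc1, which lies between Apoe and Apoc2 and inhibits lipoprotein uptake, was 2564, 1154, 1177 and 1593 CPM in WT livers at 48 h, against 2720, 2741, 2136, 4595 and 3762 CPM in WT sham livers. The log2 change was -1.03 (SE 0.27, adjusted p = 0.0162), with 1 liver at 48 h inside the sham range. It passed in 34 of 37 fits, and was lost without WT sham replicate 4, WT 48 h replicate 2 or WT 48 h replicate 3. With 4 of 10 members called, against 8.29% of all genes called, WT at 48 h was the comparison in which most members passed: 3 were lower (3.62% of all genes) and 1 higher (4.68%).

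All 4 WT calls at 48 h held without the 6 h sham livers (adjusted p from 0.0137 to 0.0361), and were lost in a pair of smaller fits. With male livers alone (2 WT livers at 48 h and 2 WT sham livers) none of the 4 passed, with log2 changes of 1.23 for Apoc2, -0.85 for Apoe, -0.79 for Apoa2 and -0.63 for Apoc1. With the WT 48 h and WT sham livers fitted alone the log2 changes were as large, at 1.43 for Apoc2 (adjusted p = 0.0667), -1.06 for Apoe (0.0685), -1.22 for Apoa2 (0.0732) and -1.11 for Apoc1 (0.103). Hepatocyte markers moved beside these genes: 3 of 10 (Cps1, Ass1 and F2) were lower in WT livers at 48 h, although their summed level ranged from 85687 to 124183 CPM there and from 86410 to 135404 CPM in WT sham livers. Of 11 Kupffer cell markers 1 was lower and 1 higher, with a summed level of 292 to 396 CPM in WT livers at 48 h and 219 to 768 CPM in WT sham livers. Of 6 sinusoidal endothelial markers 1 was lower (summed, 41.9 to 99.4 CPM in WT livers at 48 h and 86.1 to 222 CPM in WT sham livers). Of 6 T, NK and B cell markers 1 was lower (summed, 0.686 to 1.61 CPM in WT livers at 48 h and 0.950 to 4.73 CPM in WT sham livers). The part of these cells in the results of the 4 called members was not tested. For Apoc2, Gm44805 overlaps on the same strand, with 0.784% to 16.2% of the Apoc2 count per library, so reads that the authors' counting assigned to either gene could be shared.

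**Figure D2:**
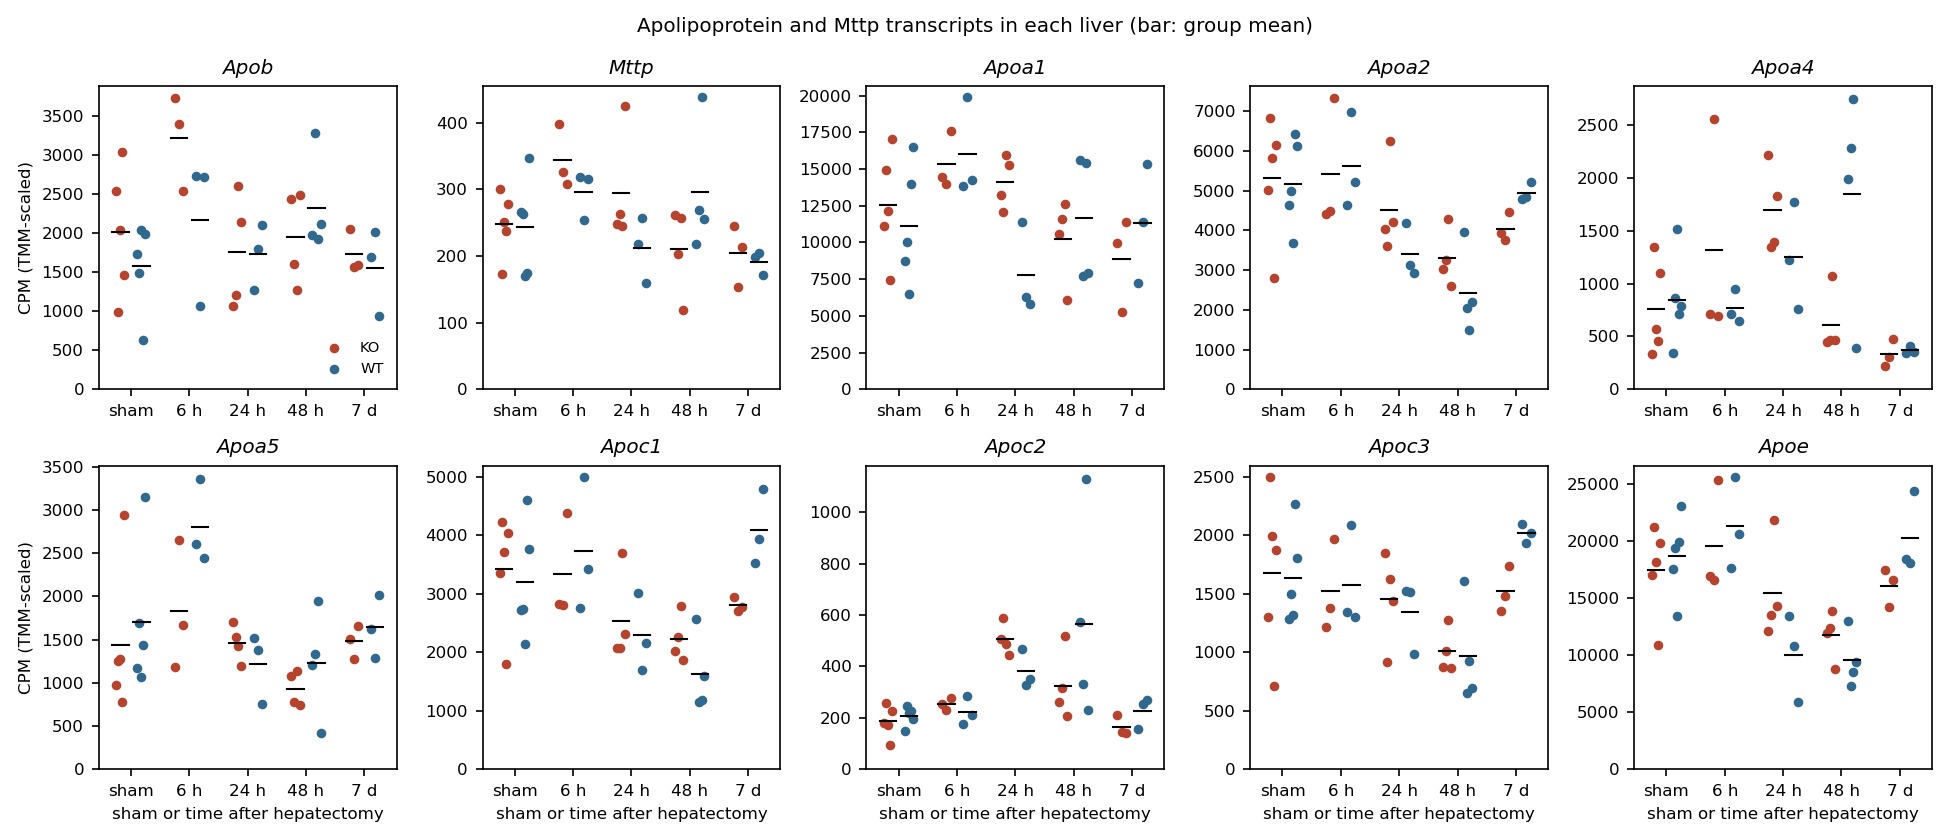
CPM scaled by the trimmed mean of M-values for each transcript in each liver, by sham or time after hepatectomy, KO in red to the left and WT in blue, with bars at the group mean. By group mean Apoc2 is highest at 24 h and 48 h, and Apoe, Apoa2 and Apoc1 are lowest in WT livers at 48 h. Single livers overlap between times, and the scales differ between panels.

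The ratio of Apoc2 to Apoe counts does not depend on the scaling between libraries. Over the 15 livers at 24 h and 48 h after hepatectomy, KO and WT, there were 2.18 to 13.3 Apoc2 counts per 100 Apoe counts. Over the other 22 livers, sham, 6 h and 7 d, there were 0.840 to 1.62, so the ranges did not overlap. The ratio was chosen after its values were seen and is given as a description. At 24 h it averaged 3.48 ± 0.995 in KO and 4.18 ± 1.61 in WT livers, and at 48 h 2.70 ± 0.703 in KO and 6.19 ± 4.86 in WT livers (SD, n = 3 or 4). In KO sham livers it was 1.04 ± 0.145 and in WT sham livers 1.14 ± 0.324. It was back at 1.02 ± 0.181 in KO and 1.13 ± 0.278 in WT livers at 7 d. Apoc1 per 100 Apoe counts, by contrast, had group means of 16.4 to 25.0, with WT livers at 24 h highest and most spread (25.0 ± 10.8). The high value there was replicate 3 at 36.8, the liver with the large mitochondrial share, and replicates 1 and 2 were at 22.5 and 15.7.

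**Figure D3:**
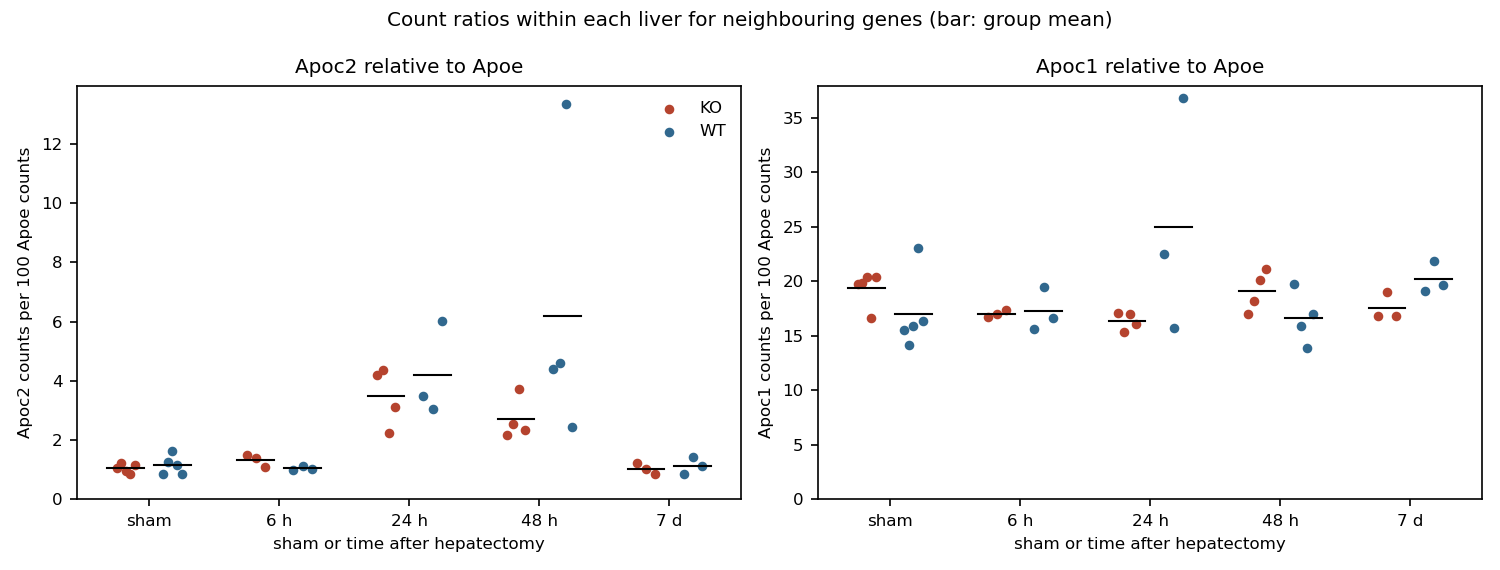
Counts of Apoc2 (left) and Apoc1 (right) per 100 Apoe counts in each liver, by sham or time after hepatectomy, KO in red to the left and WT in blue, with bars at the group mean. All 15 livers at 24 h and 48 h have more Apoc2 per Apoe than any of the other 22, while the Apoc1 ratios overlap between the times.

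Apoa4, which is secreted on triglyceride-rich particles, varied most across the livers, from 216 to 2746 CPM. In KO livers at 24 h it was 2216, 1349, 1390 and 1831 CPM, against 331, 1346, 572, 457 and 1097 CPM in KO sham livers. The groups just failed to overlap, and the log2 change of 1.10 (SE 0.43) did not pass with edgeR (adjusted p = 0.0561) while it did with DESeq2 (adjusted p = 0.0448). In WT livers at 48 h it was 1988, 2289, 2746 and 389 CPM, against 341, 866, 1518, 715 and 792 CPM in WT sham livers. The first 3 were above all sham livers and replicate 4 was below all but 1, and the log2 change of 1.16 (SE 0.43) did not pass (adjusted p = 0.0936). At 7 d Apoa4 was 216, 304 and 478 CPM in KO livers and 344, 412 and 355 CPM in WT livers, with log2 changes of -1.37 (SE 0.50) from KO sham and -0.94 (SE 0.50) from WT sham that did not pass.

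The antisense gene Gm10680 overlaps Apoa4 and had 0.960% to 1.97% of its count, and the strand setting of the counting is not given in the sources used here. Apoa4 and Apoc2 together were the members with the largest positive changes at 24 h in both genotypes.

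At 6 h after hepatectomy no member passed in KO or in WT livers by edgeR or DESeq2, while 6.62% of all genes were called in KO and 7.86% in WT. These shares were not firm. The 1223 genes called in WT became 18 with male livers alone and 1 with the compared groups fitted alone. In KO 1030 genes became 380 and 264. Leaving out 1 library gave 55 to 2704 genes in WT and 288 to 1742 in KO. At an unadjusted p under 0.05 there was 1 member in KO (Apoa4) and 0 in WT. The log2 changes ran from -0.15 (Apoc1, SE 0.30) to 1.07 (Apoa4, SE 0.48) in KO and from 0.03 (Apoa2, SE 0.29) to 0.70 (Apoa5, SE 0.41) in WT. On the first principal component the sham livers taken at 6 h were at 40.9 in WT and 19.3 in KO. Livers at 6 h after hepatectomy were at 61.2 to 91.0, and all other sham livers at -57.4 to -15.4. The part of time after surgery in the changes at 6 h was not tested. Apob, the structural protein of very low density lipoprotein, was 3732, 3401 and 2542 CPM in KO livers at 6 h, against 2542, 993, 2043, 3038 and 1467 CPM in KO sham livers, a log2 change of 0.64 (SE 0.38, adjusted p = 0.334). Mttp, the lipid loader, was 398, 326 and 308 CPM in KO livers at 6 h, against 300, 173, 251, 238 and 278 CPM in KO sham livers, with no overlap and an adjusted p of 0.369. Apoa5 at 6 h in WT was 2613, 3367 and 2451 CPM, against 1174, 1692, 1064, 1435 and 3148 CPM in WT sham livers. The high sham value of Apoa5 was the WT sham liver taken at 6 h, which lay inside the range of the WT livers at 6 h after hepatectomy. Among KO sham livers the one taken at 6 h was also highest, at 2939 CPM against 781 to 1272 CPM. Without the 6 h sham livers, which were the shams matched in time, the Apoa5 change in WT was 1.25 on the log2 scale and passed (adjusted p = 0.0135). A change relative to the sham livers taken at 6 h alone was not tested.

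At 48 h in KO livers no member passed by edgeR or DESeq2, with 3% of all genes called and 5 members at an unadjusted p under 0.05. Their log2 changes had the same signs as in WT: Apoc2 had a positive one (0.81), and Apoa2 (-0.73), Apoc1 (-0.68), Apoc3 (-0.68) and Apoe (-0.62) negative ones, with adjusted p from 0.149 to 0.283. Apoc3, the inhibitor of clearance, had a log2 change of -0.72 in WT livers at 48 h (SE 0.29, adjusted p = 0.131). At 7 d no member passed in KO or WT livers by edgeR or DESeq2. Of all genes edgeR called 0% in either genotype (497 in KO and 950 in WT at an unadjusted p under 0.05), and DESeq2 called 6 in KO and 31 in WT. At an unadjusted p under 0.05 there was 1 member in KO (Apoa4) and 0 in WT.

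**Figure D4:**
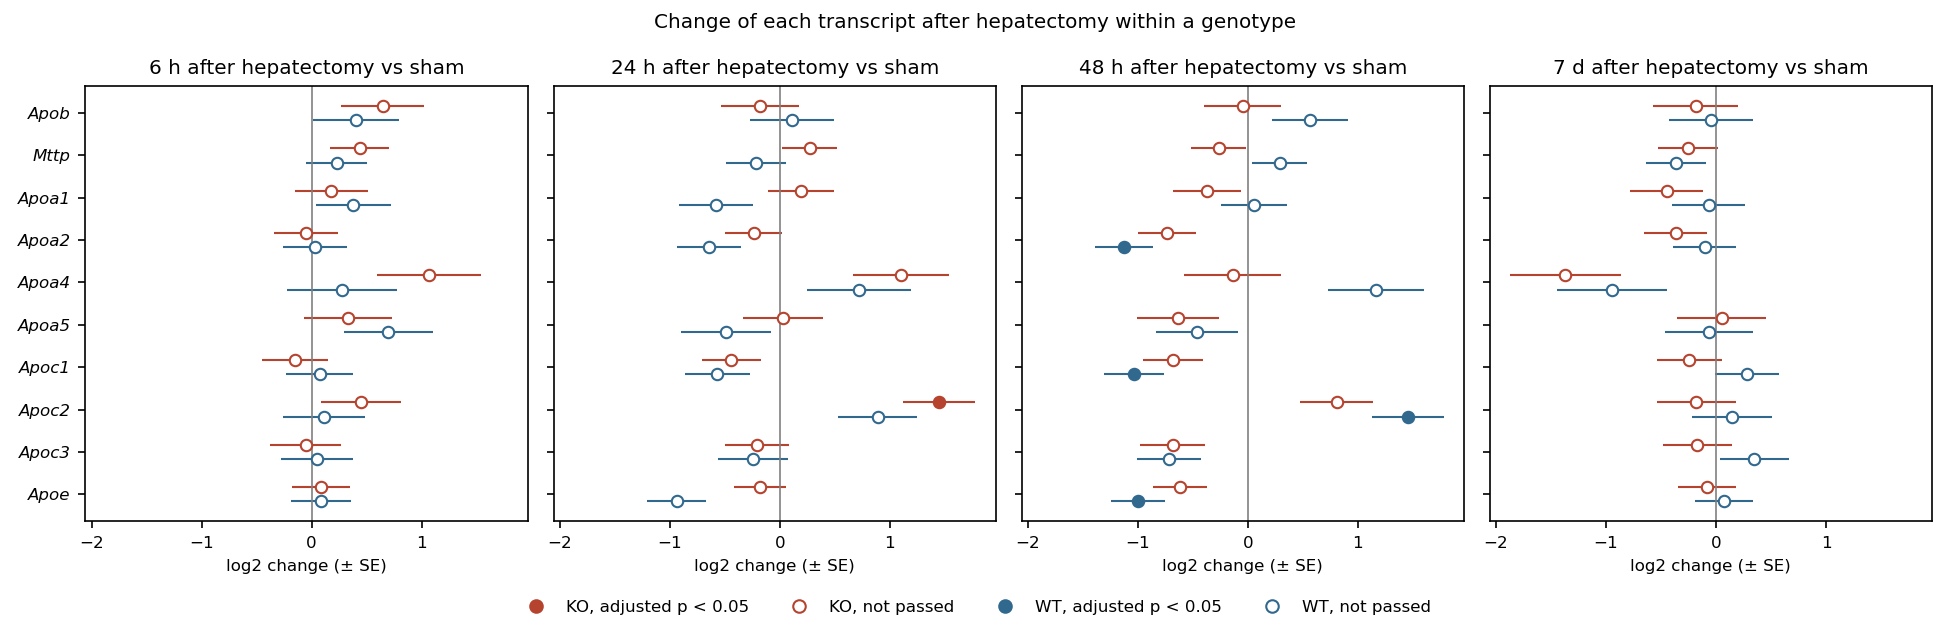
Log2 change of each transcript after hepatectomy relative to sham, with bars of 1 SE, KO in red above WT in blue. The 5 filled points passed the adjusted p threshold of 0.05: Apoc2 in KO livers at 24 h, and Apoc2, Apoe, Apoa2 and Apoc1 in WT livers at 48 h.

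Between KO and WT livers no member passed the test at any time. The test in edgeR called 0 of 10 in sham livers (0.276% of all genes called), 0 at 6 h (0.116%), 0 at 24 h (18.6%), 0 at 48 h (0.341%) and 0 at 7 d (0.045%), and DESeq2 also called none. The share of all genes at 24 h was not firm. The 2891 genes called there became 0 with the KO and WT livers at 24 h fitted alone (2157 at an unadjusted p under 0.05). Leaving out 1 library gave 998 to 5452. At an unadjusted p under 0.05 there were 2 members at 24 h and 2 at 48 h. Averaged over the 5 stages, where 2.72% of all genes were called, the log2 difference of KO minus WT ran from -0.23 for Apoa5 (SE 0.18) to 0.17 for Apob (SE 0.17), with a lowest adjusted p of 0.490. A p that misses the threshold does not show that the genotypes had equal levels.

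The genotype differences at an unadjusted p under 0.05 were Apoa1 and Apoe at 24 h and Apoa4 and Apoc2 at 48 h. Apoa1, the main protein of high density lipoprotein, was 13216, 12107, 15939 and 15294 CPM in KO livers at 24 h, against 11362, 6289 and 5805 CPM in WT livers. The groups did not overlap, and the log2 difference of 0.92 (SE 0.35) did not pass (adjusted p = 0.0639). Apoe at 24 h was 12107, 13490, 21784 and 14285 CPM in KO livers, against 13389, 10772 and 5847 CPM in WT livers, a log2 difference of 0.64 (SE 0.28, adjusted p = 0.0991). The summed hepatocyte markers did not overlap either, at 93778 to 151803 CPM in KO and 41707 to 93057 CPM in WT livers at 24 h. Their part in the Apoa1 and Apoe differences was not tested. Without WT 24 h replicate 3 the log2 difference was 0.64 for Apoa1 (adjusted p = 0.260) and 0.27 for Apoe (adjusted p = 0.528), and without KO 24 h replicate 1 it was 0.91 for Apoa1 (adjusted p = 0.0581) and 0.71 for Apoe (adjusted p = 0.0591). Apoa4 at 48 h was 449, 463, 1076 and 465 CPM in KO livers, against 1988, 2289, 2746 and 389 CPM in WT livers. Of the 4 WT livers 3 were above all KO livers and 1 was below them, and the log2 difference of -1.31 (SE 0.48) did not pass (adjusted p = 0.251). Apoc2 at 48 h averaged 325 CPM in KO livers and 565 CPM in WT livers, a log2 difference of -0.80 (SE 0.36, adjusted p = 0.385), which was -0.24 without WT 48 h replicate 3.

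The difference between the genotypes in the response to hepatectomy passed for no member by edgeR or DESeq2 at 6 h, 24 h, 48 h or 7 d. The share of all genes with a difference of responses called by edgeR was 0% at 6 h, 8.47% at 24 h, 0% at 48 h and 0% at 7 d, with 715, 4192, 1198 and 347 genes at an unadjusted p under 0.05. DESeq2 called 8 genes at 6 h, 2109 at 24 h, 53 at 48 h and 3 at 7 d. At an unadjusted p under 0.05 there was 1 member at 24 h (Apoe, log2 0.76, SE 0.36, adjusted p = 0.167) and 1 at 48 h (Apoa4, log2 -1.30, SE 0.62, adjusted p = 0.632). Of the 1319 genes that edgeR called at 24 h, the count was 0 without WT 24 h replicate 3 (where 3282 genes had an unadjusted p under 0.05), 471 without KO 24 h replicate 4 and 3659 without KO 24 h replicate 1. It was also 0 with the compared groups fitted alone, every liver of them kept (3082 at an unadjusted p under 0.05). Male minus female livers gave no called member by either tool (3.59% of all genes called), and 1 at an unadjusted p under 0.05. That was Apoa4, at 842 ± 571 CPM in male livers (n = 23) and 1247 ± 821 CPM in female livers (n = 14), a log2 difference of -0.60 (SE 0.25, adjusted p = 0.234).

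Across the 37 livers the members did not vary as one. After removing the group and sex means, Apoa2 and Apoc1 went together most closely (Pearson r = 0.94, n = 37), followed by Apoa2 with Apoc3 (0.90), Apoc1 with Apoc3 (0.89) and Apoa2 with Apoe (0.84). Apoc2 and Apoe had r = -0.29 over all libraries and 0.44 within groups and sexes. Apob had negative r with all 8 other apolipoproteins, from -0.59 to -0.23. Over the 45 pairs the median r was 0.37 within groups and 11 pairs were negative.

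Apob is the longest of the 10 transcripts, with 13934 exon bases against 537 for Apoa2, and libraries differed in how counts depended on length. The fitted log2 gap between genes of 6000 and 1000 exon bases ran from -0.48 in KO sham replicate 2 to 0.51 in KO sham replicate 4. Apob was 993 CPM in KO sham replicate 2, the lowest KO sham value, and 3038 CPM in KO sham replicate 4, the highest. Apoa2 was 6837 CPM in KO sham replicate 2, its highest KO sham value, and 2795 CPM in KO sham replicate 4, its lowest. The part of this length dependence in the correlations was not tested. With a length correction added after seeing the data, 3 members were called in KO livers at 24 h (Apoc2 and Apoa4 higher, Apoc1 lower) and 2 in KO minus WT at 24 h (Apoa1 and Apoe higher).

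**Figure D5:**
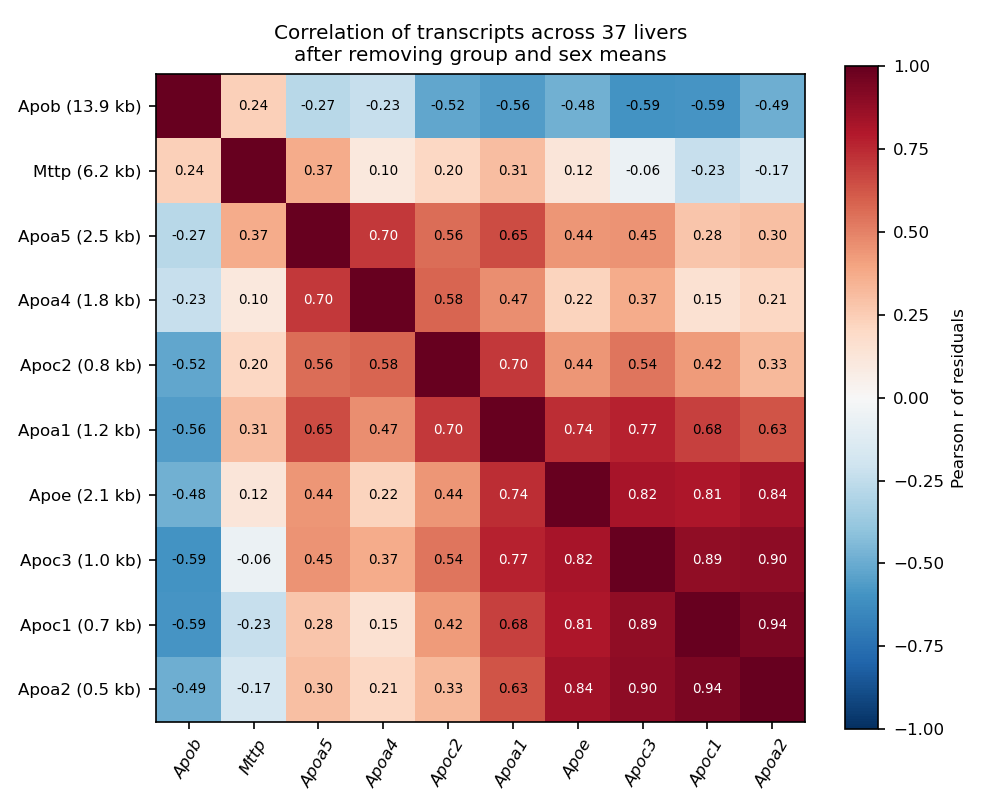
Pearson r between transcripts over 37 livers after removing group and sex means, with exon length beside each name and red for positive r. All pairs of apolipoproteins without Apob are positive, and the 8 values of Apob with the other apolipoproteins are all negative. Mttp has values of both signs.

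Among 8534 other genes with a mean of at least 5 CPM, the mean of the 10 members' standardised levels was followed most closely by Ndufs3 (r = 0.87), Cox6a1 (0.86), Cox6b1 (0.86), Cox8a (0.85) and Creb3 (0.85) over 37 livers. Ndufs3 is a subunit of respiratory complex I and the Cox genes are subunits of cytochrome c oxidase. The single closest genes were Serpina1a for Apoa1 (0.85), H2-Ke6 for both Apoa2 (0.96) and Apoc1 (0.95), Gm10680 for Apoa4 (0.97), Oplah for Apoa5 (0.87), Arfgef1 for Apob (0.91), Get4 for Apoc2 (0.86), Hint2 for Apoc3 (0.93), Serpinf1 for Apoe (0.97) and Gpd2 for Mttp (0.84). All these r values come from the same 37 libraries, and the part of depth and length dependence in them was not tested. Gm10680 overlaps Apoa4.

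Other genes of lipoprotein metabolism, a list of 56 with 55 tested, changed beside the members. In WT livers at 48 h, 2 were higher and 6 lower (8.29% of all genes were called), with a median log2 change of -0.25 over the list and 0.07 over all genes. Lipc, the hepatic lipase, averaged 37.9 CPM in WT livers at 48 h and 149 CPM in WT sham livers (log2 -1.96, SE 0.30, adjusted p = 0.00016). Pltp, the phospholipid transfer protein, fell (-1.60, SE 0.32, adjusted p = 0.00242), as did Gpihbp1, which anchors lipoprotein lipase to capillaries (-1.30, SE 0.27, adjusted p = 0.00351), and Cebpa, a hepatocyte transcription factor (-1.57, SE 0.36, adjusted p = 0.00609). Lpl, the lipoprotein lipase that Apoc2 activates, rose to 48.7 CPM in WT livers at 48 h, against 12.6 CPM in WT sham livers (log2 1.75, SE 0.45, adjusted p = 0.0141). Pla2g12b, which helps Apob particles to fill, also rose (0.74, SE 0.24, adjusted p = 0.0473), a call that held in 8 of 37 fits leaving out 1 library. Leaving out 1 library gave 5 to 9 called, with 5 without WT sham replicate 2. With the WT 48 h and WT sham livers fitted alone 1 was higher and 3 lower, and 377 of all genes were called, against 1291.

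In KO livers at 24 h, 4 of the 55 were higher and 11 lower, a share close to the 28% called among all genes. Sdc1, a heparan sulphate proteoglycan that takes up remnants, rose to 833 CPM in KO livers at 24 h, against 220 CPM in KO sham livers (log2 1.93, SE 0.26, adjusted p = 2.4e-05). Vldlr, a receptor for triglyceride-rich lipoproteins, rose (2.73, SE 0.63, adjusted p = 0.00219), as did Foxo1, a regulator of Mttp and Apoc3 (0.86, SE 0.27, adjusted p = 0.0169), and Surf4, an export receptor (0.54, SE 0.20, adjusted p = 0.0415, passing in 15 of 37 fits leaving out 1 library). Mlxipl, a carbohydrate-responsive transcription factor (-1.71, SE 0.36, adjusted p = 0.000987), Abcg1, a cholesterol exporter (-1.18, SE 0.32, adjusted p = 0.00654), Mia3, which packs large cargo for export (-0.84, SE 0.23, adjusted p = 0.0077), and Cideb, which promotes lipidation of Apob particles (-1.16, SE 0.33, adjusted p = 0.00964), fell. Leaving out 1 library gave from 8 called (without KO 24 h replicate 3) to 20 (without KO 24 h replicate 1). With the KO 24 h and KO sham livers fitted alone 1 was higher and 1 lower, and 1028 of all genes were called, against 4351.

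KO minus WT at 24 h called 5 of the 55 higher and 5 lower, a share close to the 18.6% called among all genes. Higher in KO were Foxo1 (log2 1.66, SE 0.32, adjusted p = 0.00182), Sdc1 (1.32), Abca1 (1.73), a lipid exporter for Apoa1, Vldlr (2.33) and Lipc (0.96, passing in 20 of 37 fits leaving out 1 library). Lower in KO were Angptl8, an inhibitor of lipoprotein lipase (-3.42, SE 0.90, adjusted p = 0.0112), Abcg1 (-1.08), Cideb (-1.09), A1cf, a partner of the Apob RNA editing enzyme (-1.38), and Nr1h3, a sterol-sensing receptor (-1.18). With the KO and WT livers at 24 h fitted alone none of these 10 list genes was called, and 0 of all genes were. Without WT 24 h replicate 3 there were 4 higher and 3 lower in the list. Leaving out 1 library gave from 2 called (without KO 24 h replicate 3) to 18 (without KO 24 h replicate 1). Sdc1 (log2 1.50), Foxo1 (1.54) and Angptl8 (-3.97) also differed in response to hepatectomy at 24 h, and none of the 3 passed without WT 24 h replicate 3 or without KO 24 h replicate 4. Averaged over the 5 stages Foxo1 (0.53, SE 0.13, adjusted p = 0.0287) and Vldlr (1.24, SE 0.33, adjusted p = 0.0411) were higher in KO livers. Foxo1 passed in 32 and Vldlr in 15 of the 37 fits leaving out 1 library, in which 0 to 7 of the list were called (0 without WT 24 h replicate 1, and 7 without KO 24 h replicate 1).

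At the remaining times few genes of the list passed. At 6 h Sdc1 (log2 1.53 in KO and 1.20 in WT) and Abca1 (1.95 in KO and 1.90 in WT) were higher than sham in each genotype, with adjusted p from 0.00132 to 0.0145. Foxa2 (-1.64) and Angptl8 (-3.07) were lower in KO, while in WT Srebf1 (-2.98) and Sort1 (-2.12) were lower and Ppargc1a (1.71) higher. Angptl8 in KO held in 21 and Ppargc1a in WT in 6 of 37 fits leaving out 1 library. In WT at 6 h Abca1, Srebf1 and Sort1 held in 34 and Sdc1 in 35 of them, and all were lost without WT sham replicate 1 or WT 6 h replicate 3. No list gene was called in WT at 6 h with male livers alone (18 of all genes called) or with the compared groups fitted alone (1 of all genes called). Pltp was lower at 48 h in KO livers (-1.68, SE 0.32, adjusted p = 0.0025), and Pltp (-1.69) and Lipc (-1.36) were lower at 24 h in WT livers, though not without WT 24 h replicate 3 or WT sham replicate 4. Male livers had lower Vldlr (-2.12) and Tm6sf2 (-0.68), a gene of lipoprotein loading, than female livers.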

How the data were processed

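The authors deposited 1 table of gene counts for 37 libraries. Per the labels, total RNA went into a stranded mRNA kit, and the submitters' processing notes name STAR 2.5.3a, RSEM 1.3.0 and GRCm38. The deposited values were treated like RSEM expected counts and rounded to whole numbers. The annotation release, strand setting and filters are not given in the sources used here, and GENCODE M21 was used for positions and exon lengths (54435 of 55487 identifiers matched with their version). Counts were fitted in R 4.3.3 with edgeR 4.0.16: filterByExpr, TMM, and 1 robust quasi-likelihood model of 10 groups plus sex, with common biological coefficient of variation 0.390. Each SE was obtained from the log2 change and its F statistic, as change over root F. Alternatives were DESeq2 1.42.0, other scalings, filters and sample sets, each library left out, and a length correction added after the data were seen. No replicates were merged, since even the most alike pair had a chi-square over its degrees of freedom of 32.1 (genes of 20 or more counts). The fit was also run on counts simulated from its own estimates of spread, with shifts placed in the KO 24 h group. That check held no split group, odd liver or length dependence like those seen here, so it gives no support to the calls. Named genes were Nox4, the 10 members, up to 4 list genes per direction with the smallest p (up to 10 for genotype comparisons), and the genes closest by r. The members and lists were chosen with earlier results of these data known.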

Additional observations from a re-analysis of the deposited data

Results flagged for a closer look

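Within groups of 4 or 5 livers, 5 of 50 tested sets of values held a liver far from the others, where chance flags about 1 in 20. Apoa4 in KO 48 h replicate 3 was 1076 CPM, and the other 3 livers were 449 to 465 CPM. Apoa5 in KO sham replicate 5 was 2939 CPM, and the other 4 were 781 to 1272 CPM; this was the KO sham liver taken at 6 h. Apob in WT 48 h replicate 2 was 3279 CPM, and the others were 1924 to 2118 CPM. Apoc1 in KO 24 h replicate 3 was 3699 CPM, and the others were 2072 to 2302 CPM. Mttp in KO 24 h replicate 4 was 425 CPM, and the others were 245 to 262 CPM.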

How the results depend on the processing

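Apoc2 in KO livers at 24 h passed in every alternative tried. The number of members called in KO livers at 24 h (1) was 2 with DESeq2, with total counts alone, with no filter beyond 1 count and without the 6 h sham livers, and 3 with the length correction. In WT livers at 48 h (4) it was 0 with male livers alone and 0 with the compared groups alone, and 5 with total counts alone, with no filter beyond 1 count and with the length correction. Where no member was called, 1 was called with no filter beyond 1 count for KO at 6 h, KO at 7 d, KO minus WT at 48 h and male minus female (Apoa4 each time). With total counts alone 1 was called for KO at 48 h (Apoc2) and 1 for WT at 24 h (Apoe), and DESeq2 called 1 for WT at 24 h. The length correction called 1 for KO at 48 h (Apoa2), 2 for WT at 24 h (Apoa2 and Apoe) and 2 for KO minus WT at 24 h, and leaving out the 6 h sham livers called 1 for WT at 6 h (Apoa5). With total counts alone the median log2 change of all genes was, for example, 0.25 in KO at 48 h and -0.39 in WT at 6 h, against -0.005 and 0.02 with the trimmed mean of M-values. Leaving out 1 library gave 1 to 2 members for KO at 24 h (Apoa4 added without KO sham replicate 2 or 5, KO 6 h replicate 2 or WT 48 h replicate 4), and 0 to 1 for KO at 48 h (Apoa2, without KO sham replicate 4). It gave 2 to 5 for WT at 48 h (2 without WT 48 h replicate 3), 0 to 1 for WT at 24 h (Apoe) and 0 to 1 for KO minus WT at 24 h (Apoa1), both without WT 24 h replicate 1, and 0 in the other 14 comparisons. No called change reversed its sign, and the cause of the changes was not tested. No paired analysis was possible because the labels give no replicate numbers. Groups of 3 to 5 livers limit what the tests can show.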
